A study of Rattus norvegicus with 12 samples.

Results

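The genes described here are 10 that mark lipid-associated macrophages, measured in rat joint tissue: Trem2, Tyrobp, Msr1, Apoe, Fabp5, Lpl, Gpnmb, Cd9, Lgals3 and Spp1. They were taken by gene symbol from the 3 full expression tables of the series, and all 10 were present in each table, out of 23144 genes listed in at least 1 table. The series is a bulk RNA-seq study of acupuncture around the knee in knee osteoarthritis, as its title has it, with 12 libraries of total RNA from joint tissue. The labels name 4 treatment, 4 model and 4 sham libraries. They give neither the strain, age or sex of the rats, nor how the model was induced, nor what the sham animals received. They also do not say whether the libraries of a group came from separate animals. The p-values thus measure the spread between these libraries, which may not be that between animals.

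Lipid-associated macrophages are a macrophage state described in mouse and human adipose tissue and found since in other tissues where dying cells, myelin or lipoproteins are taken up. The receptor TREM2 binds lipids, lipoproteins and apoptotic cells, and signals through its membrane partner TYROBP (DAP12), whose cytoplasmic motif recruits the kinase SYK. Cells in this state take up lipid through scavenger receptors, carry it with lipid-binding proteins, break it down in lysosomes and secrete apolipoprotein E and osteopontin. None of the genes is exclusive to macrophages: Spp1 is also a gene of osteoclasts and osteoblasts, Lpl of adipocytes and muscle, Apoe of several stromal cells, and Cd9 and Lgals3 of many cell types.

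Levels below are CPM, a gene's reads scaled to the total gene reads of its library, and differences are log2 fold changes of the authors' normalised values. The libraries held 15513116 to 17218402 gene reads. The treatment libraries differed from the others in their cell-type markers. Summed over 11 neutrophil genes they held 7.51 to 204 CPM, against 3797 to 14041 CPM in model and 14305 to 23916 CPM in sham libraries, and the first marker, S100a8, was at 1.24 to 44.9 CPM in treatment libraries, where Cd177 and Elane reached 0 in at least 1 library. Erythroid markers (9 genes) summed to 8.58 to 102 CPM in treatment libraries, 2317 to 8858 CPM in model and 3051 to 4678 CPM in sham libraries. The 10 fibroblast markers summed to 29617 to 83775 CPM in treatment libraries, 16764 to 27771 CPM in model and 7916 to 22024 CPM in sham libraries. Skeletal muscle markers reached 43499 CPM in treatment 2 and 29783 CPM in a sham library, while model libraries held 56.6 to 842 CPM. The summed levels of the 15 macrophage markers overlapped between groups at 917 to 2986 CPM in treatment, 949 to 1885 CPM in model and 932 to 1484 CPM in sham libraries. The part of these differences in the results for the 10 genes was not tested, and in bulk tissue a smaller number of cells and less RNA per cell cannot be told apart. The labels do not say which parts of the joint were taken, so a group difference in the blood or marrow content of the samples cannot be told apart from the groups themselves.

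**Figure D1:**
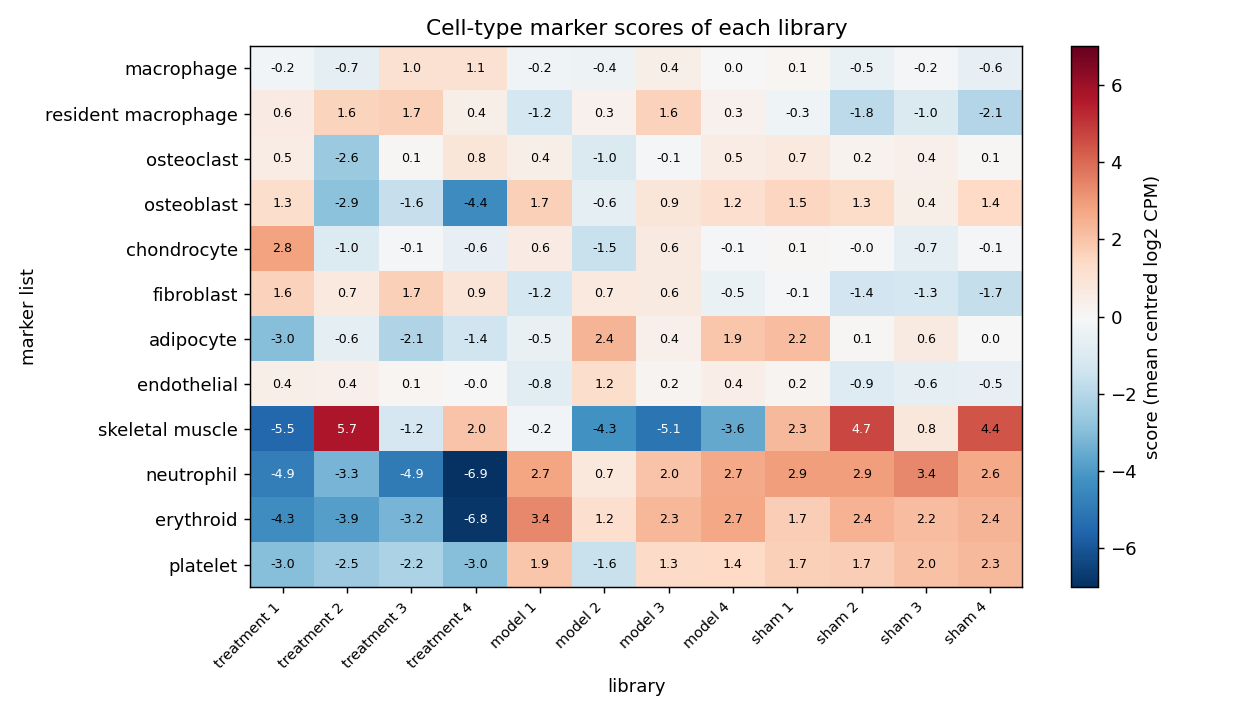
Heat map of marker scores (colour and printed value, the mean over a list's genes of log2 CPM centred on the 12 libraries) for 12 marker lists (y axis) in each treatment, model and sham library (x axis, left to right). Treatment libraries run from -6.93 to -3.27 on the neutrophil list, below model (0.74 to 2.74) and sham (2.64 to 3.39), while the macrophage scores of the groups overlap.

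In treatment against sham joints, 5 of the 10 genes rose: Trem2, Apoe, Msr1, Lgals3 and Cd9. None fell. The largest change was in the receptor Trem2, 14.8-fold, and the smallest of the 5 in the tetraspanin Cd9, 3.08-fold. The call was an adjusted p under 0.05 in limma over 20352 genes, of which 17.3% were called higher. The 4 values of each group did not overlap for 6 genes, all higher in treatment (the 5 and Gpnmb), against 16.9% of all genes. The median log2 fold change of the 10 was 1.90, beside -0.011 over all genes tested.

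In treatment against model joints, 3 genes rose, Trem2, Msr1 and Cd9, against 3.6% of 20328 genes called higher. The groups did not overlap for 4 genes, these 3 and Lgals3, against 8.51% of all genes. The median log2 fold change was 1.51, beside 0.017 over all genes. The number of members called depended on single libraries: without model 4 it was 0, and it was 1 without treatment 1, treatment 3, treatment 4 or model 1. It was also 1 with edgeR's quasi-likelihood test or with scaling to library totals. Over all genes the number called higher fell in these fits too. From 731 it went to 94 without model 4, and to 183 to 294 without any of the other libraries named. It was 550 with edgeR and 339 with library totals.

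In model against sham joints no gene was called in either direction, where limma called 0% of 20205 genes. At an unadjusted p under 0.05, 3 of the 10 and 13.0% of all genes passed; edgeR called 0 and DESeq2 0 of the 10, and over all genes 0 and 599. Tyrobp was the gene whose groups did not overlap, lower in model, where 4.77% of all genes lay wholly lower. The median log2 fold change of the 10 was 0.49, beside 0.029 over all genes. The 3 comparisons share libraries in pairs, so their values for a gene are not independent of each other.

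The authors' deposited lists of changed genes hold 7 of the 10 for treatment against sham (25.3% of all genes), Trem2, Gpnmb, Cd9, Fabp5, Lgals3, Msr1 and Apoe. They hold 6 of the 10 for treatment against model (14.9% of genes), the same without Apoe, and 0 for model against sham (1.88% of genes). Gpnmb and Fabp5 are thus in both of these lists without a call by limma, and so is Lgals3 in the list against model.

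**Figure D2:**
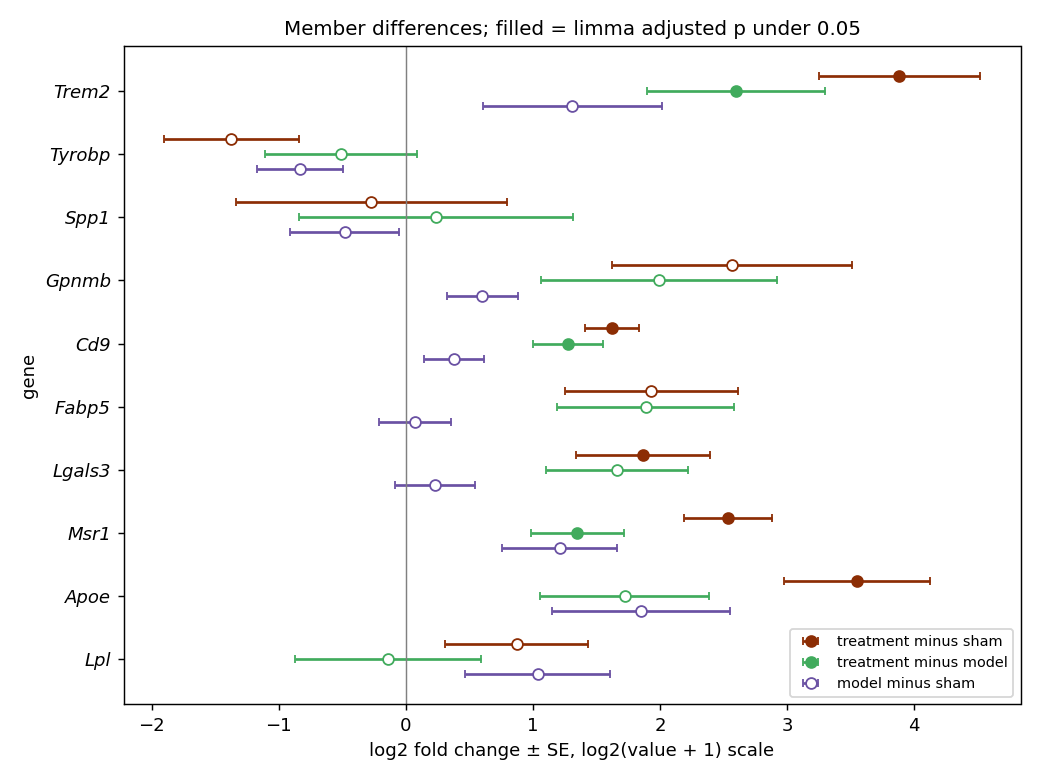
Log2 fold change with its standard error (x axis, limma on log2(value + 1), 4 libraries a group) of the 10 genes (y axis) in treatment against model, treatment against sham and model against sham. Filled symbols are genes called at an adjusted p under 0.05; Trem2, Msr1 and Cd9 are filled in both comparisons of treatment, and no symbol is filled for model against sham.

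Trem2 (ENSRNOG00000013578, chr9:12647259-12654170 on the minus strand of mRatBN7.2) encodes the lipid-sensing receptor. It had 51.3, 54.6, 158 and 241 CPM in treatment libraries, against 6.32, 31.8, 47.8 and 12.7 CPM in model libraries. Sham libraries had 18.4, 6.05, 9.84 and 2.99 CPM. Every treatment library was above every other library, with treatment 3 and treatment 4 far above treatment 1 and treatment 2, while model and sham libraries overlapped. Trem2 rose in treatment against sham by 3.88 ± 0.63 on the log2 scale (SE, limma adjusted p = 0.00177), and against model by 2.6 ± 0.70 (adjusted p = 0.0413). The first call held in all of the 19 alternatives tried and the second in 12. Against model, leaving out the libraries richest in muscle transcripts means leaving out treatment 2 alone, so that fit counts again under that name. Model against sham differed by 1.31 ± 0.70 (adjusted p = 0.445), which did not exceed the spread between libraries.

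Tyrobp (ENSRNOG00000020845, chr1:85672994-85676848, plus strand) encodes the signalling adaptor on which Trem2 depends, and its levels did not follow those of Trem2 (Pearson r = -0.36 over the 12 libraries, a description). It had 61.4, 37.5, 175 and 253 CPM in treatment libraries, 226, 73.1, 176 and 226 CPM in model libraries, and 343, 234, 355 and 245 CPM in sham libraries. The model libraries all lay below the sham libraries, and treatment 1 and treatment 2 were the lowest of all 12. The log2 fold change was -1.37 ± 0.53 in treatment against sham (limma adjusted p = 0.0725), -0.51 ± 0.60 against model (adjusted p = 0.601) and -0.84 ± 0.34 in model against sham (adjusted p = 0.362), none of them called. Without treatment 4 the difference from sham was called (adjusted p = 0.0180). Tyrobp is also expressed in neutrophils, whose markers were lowest in the treatment libraries. Over the 12 libraries it had r of 0.48 with the neutrophil score. Its highest r with a marker list were 0.76 with the osteoclast score and 0.69 with the platelet score, and r was 0.35 with the macrophage score. Among treatment libraries, treatment 4 had the lowest neutrophil sum (7.51 CPM) and the highest Tyrobp. Treatment 2 had the highest sum (204 CPM) and the lowest Tyrobp. The part of neutrophil or other cell content in the level of Tyrobp was not tested.

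Set per length, Trem2 stood at 27.5, 47.9, 29.7 and 31.5 RPKM per 100 RPKM of Tyrobp in treatment libraries (RPKM being CPM divided by the gene length in kilobases). The ratio was 0.921, 14.3, 8.96 and 1.86 in model libraries and 1.78, 0.853, 0.915 and 0.402 in sham libraries. The treatment ratios lay close together, although treatment 2 and treatment 4 differed widely in the level of both genes, and did not overlap with the other groups. Model 2 and model 3 had the highest ratios of their group. They were the model libraries richest in Trem2, the numerator of the ratio, and lowest in Tyrobp (73.1 and 176 CPM). Their neutrophil sums were also the lowest of the group, 3797 and 8802 CPM, against 13466 CPM in model 1 and 14041 CPM in model 4. The part of neutrophil content in the ratio was not tested.

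Many genes around Trem2 and Tyrobp in the signalling chain fell where Trem2 rose. Of 15 tested (partner receptors, kinases, a phospholipase, a phosphatase and shedding proteases), 10 fell and 2 rose in treatment against sham, where 19.5% of all genes were called lower, and the median log2 fold change was -1.67. Those that fell include Trem3 (-5.41 ± 0.70, limma adjusted p = 0.000475) and Treml2 (-3.85 ± 0.42, adjusted p = 0.000165), receptors of the same family as Trem2. Syk, the kinase that binds phosphorylated TYROBP, fell by 2.26 ± 0.54 (adjusted p = 0.0112), and Plcg2, the phospholipase downstream of it, fell by 2.03 ± 0.30 (adjusted p = 0.000887). The 2 that rose were Adam17, a protease that sheds TREM2 (0.80 ± 0.18, adjusted p = 0.00697), and Ms4a4a (0.95 ± 0.29, adjusted p = 0.0300). Against model, 4 fell and none rose, beside 10.5% and 3.6% of all genes: Trem3, Treml2, Plcg2 and Hcst, an adaptor of the DAP10 type. In model against sham 0 of 15 were called by limma, and Trem3 (-1.11 ± 0.32, adjusted p = 0.283) and Plcg2 (-0.73 ± 0.21, adjusted p = 0.283) had the smallest p of the list. Several of these genes are neutrophil or broad leukocyte genes, and the neutrophil markers named above were also lower in treatment libraries. The part of neutrophil content in these differences was not tested.

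Msr1 (ENSRNOG00000012779, chr16:52717732-52799676, plus strand) encodes the class A scavenger receptor, which binds modified lipoproteins and is largely a macrophage gene. It had 50.5, 40.6, 77.6 and 54.1 CPM in treatment libraries, against 13.1, 25.4, 47.0 and 20.2 CPM in model and 14.5, 5.81, 17.7 and 7.55 CPM in sham libraries. On this scale model 3 reached above treatment 2; in the authors' normalised values treatment and model did not overlap. The treatment libraries were close together, with a highest value 1.91 times the lowest. Msr1 rose in treatment against sham by 2.54 ± 0.35 (limma adjusted p = 0.000561) and against model by 1.35 ± 0.36 (adjusted p = 0.0419). The first call held in all of the 19 alternatives and the second in 9. Model against sham differed by 1.21 ± 0.45 (adjusted p = 0.347).

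Apoe (ENSRNOG00000018454, chr1:79353916-79357932, minus strand) encodes apolipoprotein E, the lipoprotein ligand that macrophages secrete with exported cholesterol. It had 2118, 2111, 6658 and 5972 CPM in treatment libraries, against 369, 2360, 2624 and 1028 CPM in model libraries and 1059, 217, 291 and 215 CPM in sham libraries. Treatment did not overlap with sham, but model 2 and model 3 stood above treatment 1 and treatment 2 on this scale. In the authors' normalised values model 3 stood above both and model 2 below both. Sham 1 stood above model 1 and model 4. Apoe rose in treatment against sham by 3.55 ± 0.57 (limma adjusted p = 0.00155), in all of the 19 alternatives too. Its differences of 1.72 ± 0.66 in treatment against model (adjusted p = 0.114) and 1.85 ± 0.70 in model against sham (adjusted p = 0.349) were not called under any of them. Per length, Apoe was the highest of the 10 genes in treatment (1986 ± 1151 RPKM, SD, n = 4) and in model (752 ± 507 RPKM), and stood behind Spp1 and Tyrobp in sham (210 ± 194 RPKM).

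Fabp5 (ENSRNOG00000049075, chr2:91765056-91853773, minus strand) encodes an intracellular fatty acid carrier. It had 44.7, 23.0, 132 and 302 CPM in treatment libraries, against 17.2, 34.5, 34.0 and 16.8 CPM in model and 28.4, 20.3, 24.9 and 20.4 CPM in sham libraries. Treatment 3 and treatment 4 stood apart from all others, while treatment 2 lay within the range of both other groups. The log2 fold change of 1.93 ± 0.68 in treatment against sham was not called by limma (adjusted p = 0.0562), nor was 1.89 ± 0.70 against model (adjusted p = 0.103). Without treatment 2 both were called. Model against sham differed by 0.07 ± 0.28 (adjusted p = 0.927). Near-identical Fabp5 copies exist in the rat genome, and the handling of reads shared with them is not stated, so the level of Fabp5 is uncertain.

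Lpl (ENSRNOG00000012181, chr16:20829465-20855249, minus strand) encodes lipoprotein lipase, which frees fatty acids from triglyceride-rich lipoproteins. It had 93.7, 238, 215 and 804 CPM in treatment libraries, against 124, 900, 188 and 425 CPM in model and 252, 107, 165 and 117 CPM in sham libraries. All 3 groups overlapped, and single libraries, model 2 and treatment 4, were far above the rest. Model 2 also had the highest adipocyte marker score of the 12 libraries, 2.40, whereas that of treatment 4 was -1.42. No difference was called: 0.87 ± 0.56 in treatment against sham (limma adjusted p = 0.263), -0.14 ± 0.73 against model (adjusted p = 0.918) and 1.04 ± 0.57 in model against sham (adjusted p = 0.452). Gpihbp1, the endothelial protein that anchors the lipase, fell in treatment against sham by 1.99 ± 0.50 (adjusted p = 0.0122) and against model by 2.52 ± 0.69 (adjusted p = 0.0432). Of 7 endothelial markers tested, 4 rose and 0 fell against sham, beside 17.3% and 19.5% of all genes. Against model 0 were called, beside 3.6% higher and 10.5% lower. Adipocyte markers summed to 147 to 377 CPM in treatment libraries, 530 to 3105 CPM in model and 567 to 3069 CPM in sham libraries. The part of cell content in the levels of Lpl and Gpihbp1 was not tested.

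Among 24 other genes of lipid uptake, storage, hydrolysis and efflux that were tested, 8 rose and 2 fell in treatment against sham, beside 17.3% and 19.5% of all genes, and their median log2 fold change was 0.19. The 8 include the uptake receptors Lrp1 (1.84 ± 0.39, limma adjusted p = 0.00498), Vldlr (1.35 ± 0.20, adjusted p = 0.000866) and the scavenger receptor Colec12 (2.0 ± 0.24, adjusted p = 0.000261). Others were the cholesterol exporter Abca1 (1.34 ± 0.32, adjusted p = 0.0105) and Npc1 (1.09 ± 0.21, adjusted p = 0.00321) and Npc2 (1.34 ± 0.38, adjusted p = 0.0225), which move cholesterol out of lysosomes. Pparg, the fatty acid-sensing regulator of adipocytes and macrophages, fell by 1.18 ± 0.39 (adjusted p = 0.0392). Against model, 4 rose (Lrp1, Vldlr, Npc1 and Colec12) and 1 fell (Gpihbp1), beside 3.6% and 10.5% of all genes. In model against sham 0 of 24 were called by limma.

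Gpnmb (ENSRNOG00000008816, chr4:78010197-78049367, plus strand) encodes a transmembrane glycoprotein of lysosomes and phagocytes, known as osteoactivin in bone. It had 428, 241, 2204 and 7126 CPM in treatment libraries, against 249, 269, 578 and 260 CPM in model and 265, 206, 173 and 211 CPM in sham libraries. Treatment 4 held 29.6 times the CPM of treatment 2, the widest gap within a group of any of the 10 genes but Spp1, and treatment 2 lay within the range of sham on this scale, though above it in the authors' normalised values. The log2 fold change was 2.57 ± 0.95 in treatment against sham (limma adjusted p = 0.0673) and 1.99 ± 0.93 against model (adjusted p = 0.181), neither called, and 0.60 ± 0.28 in model against sham (adjusted p = 0.404). In the authors' deposited table the log2 fold change for treatment against sham was 3.63 with an adjusted p of 2.57e-05. Without treatment 2, limma also called it. Model 3 was the highest model library by a wide margin.

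Cd9 (ENSRNOG00000019556, chr4:158256328-158289222, minus strand) encodes a tetraspanin of the cell surface and of extracellular vesicles. It had 930, 488, 591 and 776 CPM in treatment libraries, against 222, 358, 457 and 261 CPM in model and 276, 197, 273 and 235 CPM in sham libraries. Every treatment library was above every model and sham library, and within a group the highest library held at most 2.06 times the lowest. Cd9 rose by 1.62 ± 0.21 against sham (limma adjusted p = 0.000400), the smallest adjusted p of the 10 genes, and by 1.27 ± 0.27 against model (adjusted p = 0.0188). These calls held in 19 and 17 of the 19 alternatives. Unlike Trem2, Fabp5 and Gpnmb, Cd9 was highest in treatment 1 and not in treatment 4. Model against sham differed by 0.38 ± 0.24 (adjusted p = 0.497).

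Lgals3 (ENSRNOG00000010645, chr15:20607692-20632025, plus strand) encodes galectin-3, a lectin that binds damaged lysosomes and glycoproteins outside the cell. It had 341, 276, 872 and 1797 CPM in treatment libraries, against 126, 304, 302 and 197 CPM in model and 244, 157, 249 and 133 CPM in sham libraries. Treatment did not overlap with sham; treatment 2 lay below model 2 and model 3 on this scale, though not in the authors' normalised values. Lgals3 rose against sham by 1.87 ± 0.53 (limma adjusted p = 0.0227), a call that held in 15 of the 19 alternatives. Against model the difference of 1.66 ± 0.56 was not called (adjusted p = 0.0790), and model against sham differed by 0.23 ± 0.32 (adjusted p = 0.762).

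Spp1 (ENSRNOG00000043451, chr14:5308885-5315162, minus strand) encodes osteopontin, a secreted ligand of integrins and CD44 and a matrix protein of bone. It had 1253, 58.9, 898 and 3195 CPM in treatment libraries, against 1405, 282, 538 and 811 CPM in model and 1118, 1023, 654 and 913 CPM in sham libraries. Treatment 2 was the lowest and treatment 4 the highest of all 12 libraries, and the groups overlapped in every comparison. The log2 fold change was -0.27 ± 1.07 in treatment against sham (limma adjusted p = 0.868), 0.23 ± 1.08 against model (adjusted p = 0.905) and -0.48 ± 0.43 in model against sham (adjusted p = 0.630). Without treatment 2 the difference from sham turned positive, 0.88. Osteoclast markers were also lowest in treatment 2 (score -2.59) and highest in treatment 4 (0.83), and Spp1 followed that score over the 12 libraries (Pearson r = 0.95, a description, since libraries share their tissue makeup). Osteoblast markers did not follow the same order: treatment 4 had the lowest osteoblast score, -4.41.

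**Figure D3:**
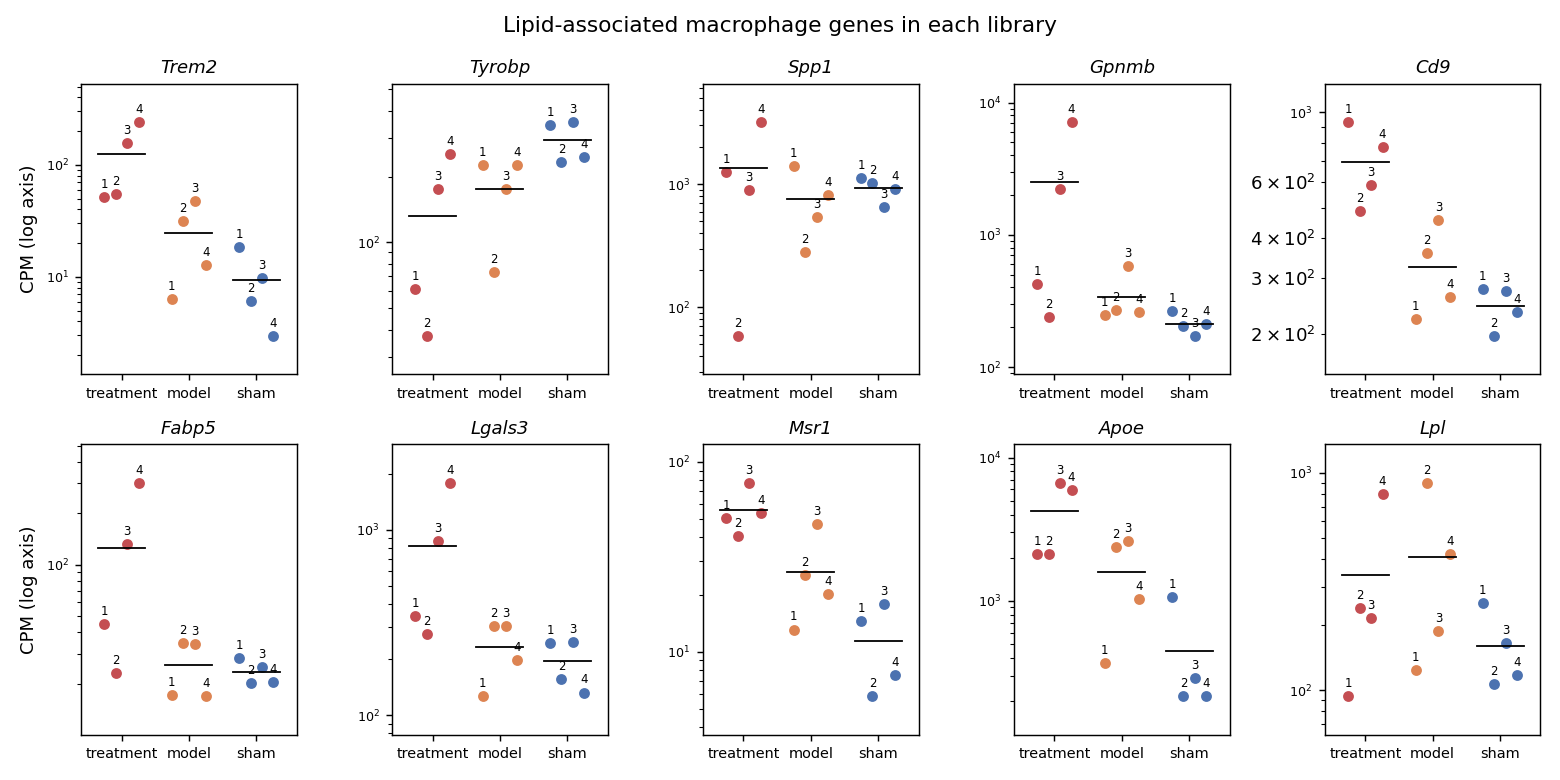
Level of each of the 10 genes (panels) in every library as CPM on a log axis (y axis), with treatment, model and sham from left to right (x axis), points numbered by replicate and a line for the group mean. The 4 treatment libraries sit above all others for Trem2 (51.3 to 241 CPM) and Cd9 (488 to 930 CPM), while those of Spp1 run from 58.9 to 3195 CPM.

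The 20 further genes of the lipid-associated and lysosomal signature that were tested, among them cathepsins, cystatins and growth factors, had 10 that rose and 2 that fell in treatment against sham, beside 17.3% and 19.5% of all genes, with a median log2 fold change of 1.02 (-0.011 over all genes). Those that rose include the lysosomal proteases Ctsl (2.54 ± 0.27, limma adjusted p = 0.000138) and Ctsb (2.13 ± 0.30, adjusted p = 0.000672), the elastase Mmp12 (7.98 ± 1.53, adjusted p = 0.00472) and the receptor kinase Axl (1.33 ± 0.23, adjusted p = 0.00188). The 2 that fell were the lysosomal glycoprotein Creg1 (-2.10 ± 0.33, adjusted p = 0.00118) and the cystatin Cst7 (-2.86 ± 0.85, adjusted p = 0.0305). Against model, Cd63, Cstb and Ctsl rose and Creg1 fell, beside 3.6% and 10.5% of all genes. Fibroblasts also express several of these genes, and fibroblast markers were highest in the treatment libraries (8 of 10 rose against sham). The part of fibroblast content in these differences was not tested. In model against sham 0 of 20 were called by limma, and the smallest p belonged to Ctsb (0.97 ± 0.25, adjusted p = 0.253) and Mmp12 (3.62 ± 1.08, adjusted p = 0.301).

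Of 13 receptors and regulators linked to osteopontin and Gpnmb, 7 rose and 2 fell in treatment against sham, beside 17.3% and 19.5% of all genes, with a median log2 fold change of 0.82 (-0.011 over all genes). The osteopontin-binding integrin subunits Itgav (1.5 ± 0.23, limma adjusted p = 0.000949), Itgb1 (1.52 ± 0.14, adjusted p = 7.35e-05) and Itgb5 (1.58 ± 0.28, adjusted p = 0.00202) rose. The subunit Itgb3, which osteoclasts and platelets use, fell by 3.02 ± 0.38 (adjusted p = 0.000362), and Itga4 of leukocytes by 1.83 ± 0.44 (adjusted p = 0.0111). Mitf, a transcription factor known to drive Gpnmb, rose against sham by 2.35 ± 0.16 (adjusted p = 1.28e-05) and against model by 1.88 ± 0.33 (adjusted p = 0.00828). Against model Mitf and Itgav rose and none of the 13 fell, beside 3.6% and 10.5% of all genes. In model against sham 0 of 13 were called by limma, and Itgav had the smallest p (0.67 ± 0.15, adjusted p = 0.203). Over the 4 lists of related genes, the calls against model held in all of the 19 alternatives for Trem3, Treml2, Npc1, Creg1 and Mitf, and in 8 (Itgav) to 15 (Vldlr) of them for the others named. Of the calls against sham, Ms4a4a held in 12, Pparg in 11, Npc2 in 13 and Cst7 in 12, and Syk, Abca1 and Itga4 lost theirs without the libraries richest in muscle transcripts. Platelet markers, a list that holds Itgb3 itself, summed to 69.6 to 187 CPM in treatment libraries, 124 to 947 CPM in model and 802 to 1160 CPM in sham libraries.

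The 250 bases before the start are printed for the 5 of the 10 genes that the RefSeq table used holds: Trem2, Cd9 and Apoe, called in treatment against sham, and Gpnmb and Spp1, the genes of widest spread there. They show what letters lie before genes with these patterns. The build of the table, GRCr8, differs from that of the expression tables. The regions are chr9:20151780-20152029 for Trem2, chr4:79340878-79341127 for Gpnmb, chr4:159975359-159975608 for Cd9 and chr14:5619805-5620054 for Spp1. Apoe has 3 starts in the table, with the regions chr1:88485817-88486066, chr1:88484700-88484949 and chr1:88484521-88484770, in this order. Gpnmb lies on the plus strand and the other 4 genes on the minus strand. Capitals mark matches, on either strand, to GAGGAA, the core bound by the macrophage factor PU.1, to TGANTCA, the AP-1 motif, and to TCATGTG, the motif of the Mitf family. CACGTG was searched as well. TCATGTG was chosen after the Gpnmb sequence had been read.
Trem2: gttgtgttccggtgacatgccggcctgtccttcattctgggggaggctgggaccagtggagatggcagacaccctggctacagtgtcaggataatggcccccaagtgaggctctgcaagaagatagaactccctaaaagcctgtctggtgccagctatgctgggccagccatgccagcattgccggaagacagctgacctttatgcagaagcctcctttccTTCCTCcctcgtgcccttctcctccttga
Gpnmb: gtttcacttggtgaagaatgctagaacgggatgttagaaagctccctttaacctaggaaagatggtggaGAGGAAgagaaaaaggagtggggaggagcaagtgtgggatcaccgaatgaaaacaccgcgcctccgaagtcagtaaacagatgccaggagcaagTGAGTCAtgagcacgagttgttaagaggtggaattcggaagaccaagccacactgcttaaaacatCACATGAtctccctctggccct
Cd9: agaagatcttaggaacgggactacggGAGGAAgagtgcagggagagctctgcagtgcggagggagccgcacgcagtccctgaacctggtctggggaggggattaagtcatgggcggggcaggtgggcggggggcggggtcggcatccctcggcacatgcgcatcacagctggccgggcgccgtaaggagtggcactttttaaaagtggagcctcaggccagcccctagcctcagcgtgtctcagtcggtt
Spp1: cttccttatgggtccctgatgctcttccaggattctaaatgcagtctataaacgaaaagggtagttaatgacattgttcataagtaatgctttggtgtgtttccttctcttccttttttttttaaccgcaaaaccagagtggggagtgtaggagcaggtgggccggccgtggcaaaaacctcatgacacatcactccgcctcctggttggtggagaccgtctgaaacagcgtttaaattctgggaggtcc
Apoe, start 1: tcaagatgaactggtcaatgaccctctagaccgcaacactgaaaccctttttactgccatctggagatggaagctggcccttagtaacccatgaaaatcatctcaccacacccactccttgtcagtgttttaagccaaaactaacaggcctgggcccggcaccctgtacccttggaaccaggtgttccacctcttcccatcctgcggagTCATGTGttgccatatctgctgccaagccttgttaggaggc
Apoe, start 2: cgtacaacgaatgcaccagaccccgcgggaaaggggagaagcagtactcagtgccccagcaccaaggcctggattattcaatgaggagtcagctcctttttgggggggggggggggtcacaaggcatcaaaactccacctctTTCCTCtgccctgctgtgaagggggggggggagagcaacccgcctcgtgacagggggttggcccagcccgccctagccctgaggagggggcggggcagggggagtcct
Apoe, start 3: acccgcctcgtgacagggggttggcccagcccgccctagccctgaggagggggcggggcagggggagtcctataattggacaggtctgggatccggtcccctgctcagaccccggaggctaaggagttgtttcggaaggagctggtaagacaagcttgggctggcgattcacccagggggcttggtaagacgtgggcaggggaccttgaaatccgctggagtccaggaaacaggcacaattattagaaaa
Trem2 had 1 match to GAGGAA, read on the opposite strand, that began 29 bases before the start. Gpnmb had TCATGTG on the opposite strand 22 bases before the start, TGANTCA 87 bases before it and GAGGAA 181 bases before it. Cd9 had GAGGAA 224 bases before its start, and Spp1 had none of the motifs in this window. Of the 3 windows of Apoe, that of start 1 had TCATGTG 41 bases before it, that of start 2 had GAGGAA on the opposite strand 108 bases before it, and that of start 3 had none. Over 33469 promoters of the same length, 23.3% hold GAGGAA, 6.34% TGANTCA, 3.07% TCATGTG and 5.59% CACGTG. A match describes the letters of the window, and binding was not measured.

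Set against the macrophage markers of the same library, the 10 genes differed in where the groups stood. As log2 CPM minus the mean log2 CPM of the 15 macrophage markers, Trem2 lay at -0.0010 to 0.93 in treatment libraries, against -2.96 to -0.54 in model and -3.71 to -1.80 in sham libraries. Apoe lay at 5.36 to 5.85 in treatment libraries, against 2.88 to 5.67 in model and 2.32 to 4.04 in sham libraries. Tyrobp lay at 0.04 to 0.995 in treatment libraries, against 0.66 to 2.17 in model and 2.41 to 2.73 in sham libraries. Treatment lay wholly above sham for 6 genes, Trem2, Apoe, Gpnmb, Msr1, Fabp5 and Lgals3, and wholly below for 1, Tyrobp; of all genes tested, 3.4% lay wholly above and 21.3% wholly below on this scale. It lay wholly above model for 2, Trem2 (difference of means 2.08) and Lgals3 (1.16), against 0.689% of all genes. Model lay wholly below sham for Tyrobp (-1.07), as 4.83% of all genes did. Cd9, called higher in treatment on its own scale, overlapped with both groups on this one. Of the 15 macrophage markers themselves, 5 rose and 1 fell in treatment against sham (17.3% and 19.5% of all genes). Against model 2 rose, Cd14 among them, and 0 fell (3.6% and 10.5% of all genes). The macrophage score of treatment 3 and treatment 4 was 1.04 and 1.09, the highest of the 12.

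**Figure D4:**
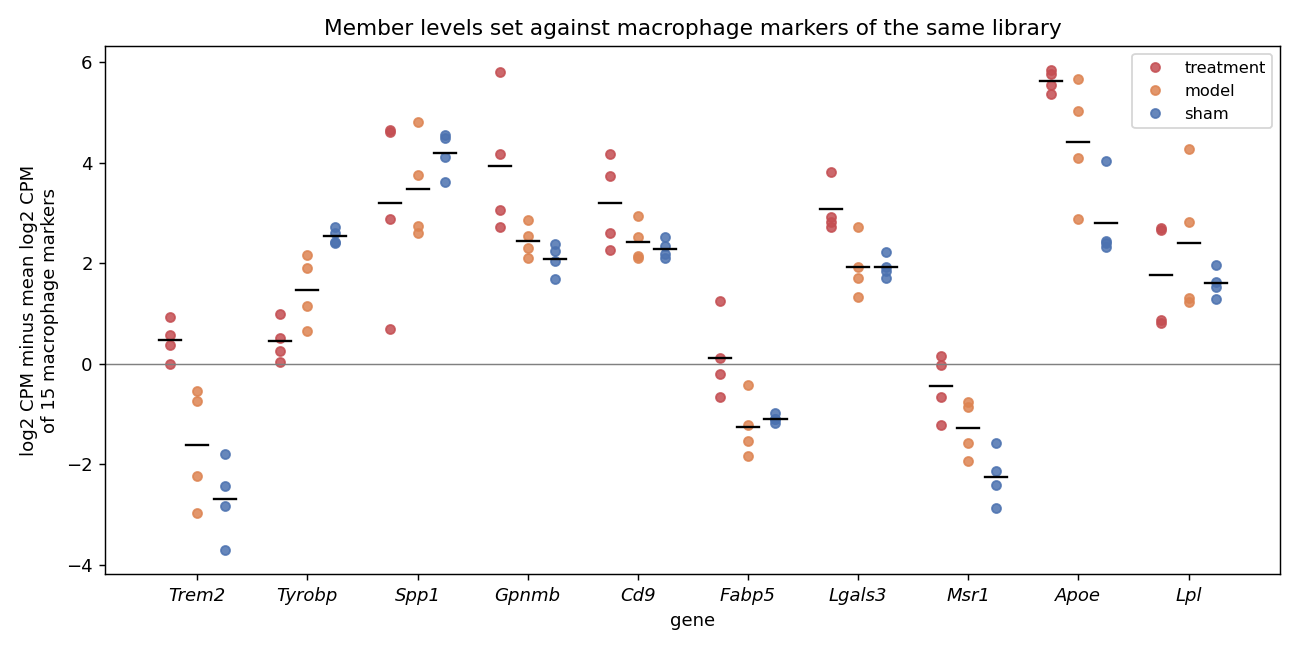
Each gene's log2 CPM minus the mean log2 CPM of 15 macrophage markers in the same library (y axis) for the 10 genes (x axis), with treatment, model and sham from left to right within a gene, points for libraries and bars for group means. The treatment libraries lie above all sham libraries for Trem2 and Apoe and below them for Tyrobp.

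Over the 12 libraries the 7 genes of the authors' treatment against sham list varied together. That list was made from 8 of these libraries, and all 7 are higher in treatment there. High r among the 7, and lower r with Tyrobp, Spp1 and Lpl, which are not on it, are therefore partly built in by the choice. The 21 pairs among Trem2, Gpnmb, Cd9, Fabp5, Lgals3, Msr1 and Apoe had Pearson r of log2 CPM from 0.68 (Gpnmb with Msr1) to 0.97 (Fabp5 with Lgals3). The same 7 had r of -0.51 to 0.07 with Tyrobp, -0.12 to 0.44 with Spp1 and 0.23 to 0.57 with Lpl. Trem2, Msr1 and Apoe followed the fibroblast score (r = 0.92, 0.92 and 0.94) and the resident macrophage score (0.84, 0.91 and 0.89) more closely than Gpnmb did (0.62 and 0.48). Gpnmb, Fabp5 and Lgals3 had r of 0.89, 0.84 and 0.83 with the general macrophage score. All of these describe 12 libraries that share tissue makeup and 3 group levels, and carry no test.

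The genes most like each member were sought among 13349 genes with a mean of at least 1 CPM. Nearest to Trem2 were P2ry6 (r = 0.99), a nucleotide receptor of phagocytes, Ptgfrn and Pid1. Nearest to Tyrobp were the leukocyte genes Laptm5, Spi1, which encodes PU.1, and Nfam1 (r = 0.99 each). Nearest to Spp1 was Atp6v0d2, a proton pump subunit of osteoclasts (r = 0.98), then Xpr1 and Slc37a2. Atp6v0d2 is itself a gene of the osteoclast score, and also of the list of further lipid-associated and lysosomal genes. Near to Gpnmb were Lipa, the lysosomal acid lipase (r = 0.99), and Cd83. Fabp5 was near to Gas7 and Npc2, and Lgals3 to Rab7b, Apba1 and Plxnb2. Cd9 was nearest to Arfgap3, Adgrg2 and S100a10. Msr1 was nearest to C1s, Nox4 and Megf6, and Apoe to Serping1, Cfb and Dusp7, of which C1s, Serping1 and Cfb belong to the complement system. Lpl was nearest to Ankrd66, Tmem51 and Kif26b.

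**Figure D5:**
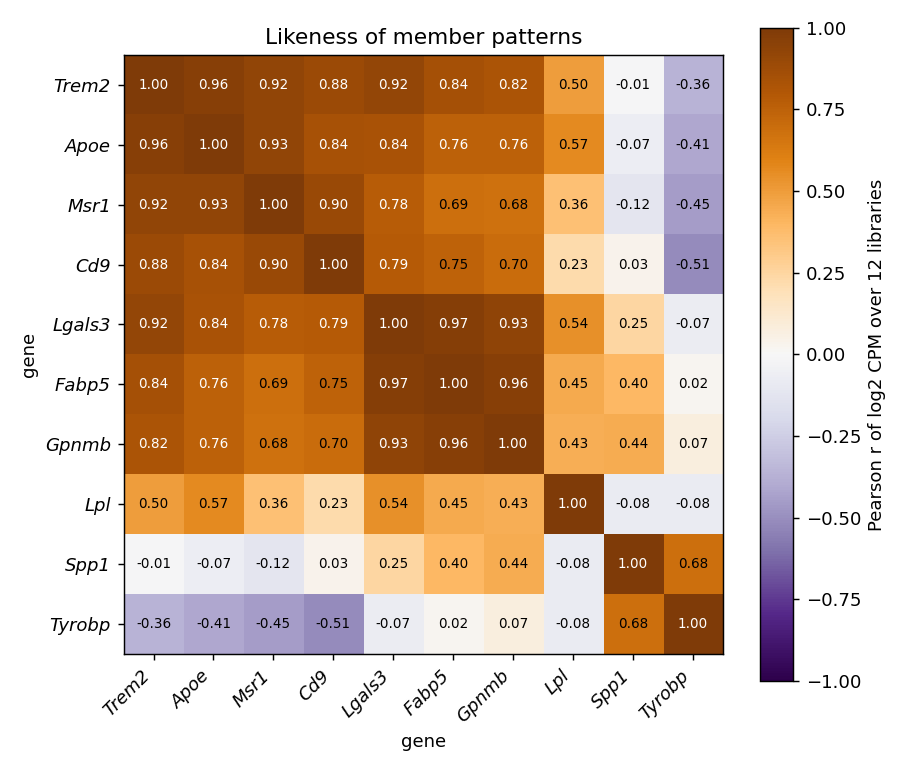
Pearson r of log2 CPM over 12 libraries between each pair of the 10 genes, as a colour scale from -1 to 1. Trem2, Gpnmb, Cd9, Fabp5, Lgals3, Msr1 and Apoe, chosen from the authors' treatment against sham list, have r of 0.68 to 0.97 with each other. Tyrobp, Spp1 and Lpl, which are not on that list, have lower r with them.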

How the data were processed

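RNA of 12 rat joint libraries was sequenced. The submitters' processing notes name fastp, DESeq2 and mRatBN7.2; for the aligner, the counter, the annotation release and strandedness, the choice is not given in the sources used here. The deposited signal values in the 3 full tables have, from the values themselves, the steps of whole reads divided by 1 factor per library and table; 100% of values returned to whole reads (tolerance 0.001 reads), and reads shared between tables were identical in 241694 entries. The authors' log2 fold changes and p-values, deposited in the same tables, are printed only where named. One emptied line per table was not used. Gene lengths deposited by the authors gave RPKM.

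Each table was tested alone with limma 3.58.1 (trend, robust; R 4.3.3) on log2(value + 1) without covariates, leaving out genes whose mean was under 1. Benjamini-Hochberg adjustment ran over all genes and calls were made at 0.05. A fold change on this scale understates the change of low genes. CPM came from the recovered reads and sets all 12 libraries on library totals; correlations used log2 CPM with a prior count of 2. Alternatives were other pseudocounts and filters, TMM, library totals, edgeR 4.0.16, DESeq2 1.42.0, all 12 libraries, a replicate block, and leaving out libraries. The libraries richest in muscle transcripts were sham 2, sham 4 and treatment 2. In treatment against model, leaving these out is the same fit as leaving out treatment 2, so the 19 alternatives there hold it under both names. Scripts were tested on simulated data. The members and lists were chosen with earlier results of these data known. Besides the members, the text names, from each pathway list and comparison, the 2 genes of smallest p and the gene of largest mean value, and for each member the 3 most alike genes; other genes of these lists were named after their values were seen. A few genes that this rule or these lists hold are not reported here.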

Additional observations from a re-analysis of the deposited data

Results flagged for a closer look

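Gpnmb in model 3 stood apart from its group. It had 578 CPM there, against 249 to 269 CPM in the other model libraries, and the gap to the nearest on the log2 CPM scale was 0.905 of the group's range, above Dixon's 95% critical value for 4 samples. This was 1 of 30 groups of 4 libraries examined (10 genes in 3 groups), and chance flags about 1 in 20 groups.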

How the results depend on the processing

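The members called in treatment against model, 3 in the fit reported, numbered 1 with scaling to library totals or with edgeR, 6 with DESeq2, 5 with all 12 libraries in 1 fit, and 0 to 4 when 1 library was left out. Over all genes, 731 were called higher against model in the fit reported, 339 with library totals and 550 with edgeR. DESeq2 called 1884 higher, all 12 libraries in 1 fit 1371, and the fits without 1 library 94 to 1360. The members whose groups did not overlap in treatment against model were 4, and 2 with library totals. The count of members called against sham, 5, ranged from 4 to 7 without 1 library. Of all genes, 2714 to 3686 were called higher in those fits, beside 3524 in the fit reported. No alternative called a member in model against sham. The direction turned for differences that were never called. Fabp5 in model against sham ran from -0.11 (without model 2) to 0.26 when 1 library was left out, and was -0.0740 without the libraries richest in muscle transcripts, where Lgals3 was -0.11. With 1 library left out, Spp1 in treatment against model ran from -0.47 (without treatment 4) to 1.37 (without treatment 2), and Lpl from -0.67 (without treatment 4) to 0.38 (without model 2). Spp1 in treatment against sham was 0.64 with edgeR and with DESeq2, -0.98 to 0.88 with 1 library left out, highest without treatment 2, and 1.0 without the muscle-rich libraries. The cause was not tested. Scaling to library totals moved the median log2 fold change of all genes to -0.13 against model and -0.14 against sham, and its calls against model split into 339 higher and 2734 lower, beside 731 and 2139.

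The labels do not say whether the replicate numbers pair libraries. Deviations of same-numbered libraries from their group means had r of -0.59 to 0.38. These r cannot settle pairing, because libraries of a group differed widely in tissue makeup. With the replicate number as a block, 2 members were called in treatment against model (Cd9 had a limma adjusted p of 0.0621, and of the list genes Lrp1 had 0.0693 and Itgav 0.0957), 5 against sham and 0 in model against sham, and not every library correlated best with its own number. With this block, 432 genes in all were called higher against model and 3191 against sham. Over all genes, edgeR on the recovered reads called 7092 in treatment against sham, 2452 in treatment against model and 0 in model against sham. The 2870 limma calls of treatment against model were 4870 with DESeq2 and 1178 to 4146 without 1 library; in model against sham, 0 calls became 599 with DESeq2 and 0 to 171 without 1 library. Depth limits Trem2 most, with 51 reads in its lowest library.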

Other observations

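Macrophage markers outside the 10 genes did not move as one. In treatment against sham, Cd14, a lipopolysaccharide co-receptor, rose by 2.07 ± 0.35 on the log2 scale (limma adjusted p = 0.00169), the complement subunit C1qb by 1.34 ± 0.32 (adjusted p = 0.00905) and the mannose receptor Mrc1 by 1.06 ± 0.30 (adjusted p = 0.0201). The haemoglobin scavenger receptor Cd163 fell by 1.15 ± 0.18 (adjusted p = 0.00108). Among 5 tested markers of tissue-resident macrophages, 3 rose in that comparison, where 17.3% of all genes were called higher. They were Timd4, a receptor for phosphatidylserine (3.99 ± 0.76, adjusted p = 0.00320), Folr2 (2.57 ± 0.51, adjusted p = 0.00417) and Lyve1 (1.98 ± 0.49, adjusted p = 0.0120), which lymphatic endothelium also expresses. Vsig4, first of that list, had 2.54 to 62.6 CPM in treatment, 11.8 to 76.2 CPM in model and 2.28 to 11.9 CPM in sham libraries, which overlapped. In treatment against model, 0 of the 5 resident markers were called by limma, beside 3.6% of all genes called higher and 10.5% lower. These genes were named after their values were seen.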
